A study of Mus musculus with 12 samples.

Results

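The genes of MHC class I antigen presentation were followed as 10 listed members among the 48526 genes of each count file: the classical heavy chains H2-K1 and H2-D1, the light chain B2m, the peptide transporter subunits Tap1 and Tap2, the loading factor Tapbp, the immunoproteasome subunits Psmb8, Psmb9 and Psmb10, and the transactivator Nlrc5. All 10 were found by their Ensembl identifiers, and all 10 passed the filter on low counts in each of the 9 comparisons described here. The samples, titled as whole intestinal epithelium, were isolated, per the extraction protocol, from the proximal part of the small intestine of 4 adult female mice aged 3 months, and each animal gave an input library and 2 immunoprecipitates made with J2 and K1, antibodies that bind double-stranded RNA. The 2 DKO animals had Kat2a and Kat2b deleted, induced by tamoxifen at 100 mg/kg given into the abdomen on 4 successive days, and tissue was taken 2 days after the end of treatment. The 2 control animals received the solvent of 10% ethanol and 90% corn oil alone, so that genotype and tamoxifen cannot be told apart, and the promoter that drives the recombinase is not given in the sources used here.

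MHC class I molecules display peptides from inside the cell to CD8 T cells. Peptides are cut by the proteasome, whose constitutive catalytic subunits can be replaced by the immunoproteasome subunits, carried into the endoplasmic reticulum by TAP, and loaded with the help of tapasin onto a heavy chain paired with beta-2-microglobulin. Interferon raises many of these genes through factors that include IRF1, while NLRC5 acts at heavy chain promoters together with the RFX factors. In the intestine, epithelial cells express class I molecules and lie beside lymphocytes lodged between them.

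In GRCm38, 7 of the 10 members lie on chromosome 17, in or beside the MHC: Tapbp at chr17:33915899-33929292, H2-K1 at chr17:33996017-34000347, Psmb9 at chr17:34181987-34187764, Tap1 at chr17:34187553-34197225, Psmb8 at chr17:34197721-34201454, Tap2 at chr17:34203527-34216321 and H2-D1 at chr17:35262730-35267499. B2m lies at chr2:122147686-122153083, and Psmb10 (chr8:105935735-105938444) and Nlrc5 (chr8:94434356-94527272) are on chromosome 8. Values of these protein-coding genes are the deposited counts per gene, and their exon lengths come from GENCODE. Counting did not use strand, and Tap1 and Psmb9, read from opposite strands, share 212 exonic bases. Tapbp shares 29.0% of its exonic length with Zbtb22 and Gm19412, Tap2 shares 18.5% and Psmb8 14.7%. Zbtb22 itself had 113 to 1386 counts per library, and Gm20496 and Gm15821, which overlap Tap2 or Psmb8, had at most 20.

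Upstream sequences are shown for H2-K1, B2m and Psmb10, as a heavy chain gene called higher in DKO input, the light chain gene and an immunoproteasome gene, neither of which was called there. They are RefSeq promoter entries on GRCm38, read 5′ to 3′ on the gene's strand and ending just before the first annotated exon, at chr17:34000348-34000597 (minus strand) for H2-K1, chr2:122147437-122147685 (plus strand) for B2m and chr8:105938445-105938642 (minus strand) for Psmb10. Capitals mark letters matching the searched motifs on either strand, which were an IRF core (AANNGAAA), a GAS element (TTCNNNGAA), a CCAAT box (CCAAT), a CRE-type element (TGACG) and a kappaB site (GGGNNTTCC), none of whose matches overlapped in these stretches.
H2-K1: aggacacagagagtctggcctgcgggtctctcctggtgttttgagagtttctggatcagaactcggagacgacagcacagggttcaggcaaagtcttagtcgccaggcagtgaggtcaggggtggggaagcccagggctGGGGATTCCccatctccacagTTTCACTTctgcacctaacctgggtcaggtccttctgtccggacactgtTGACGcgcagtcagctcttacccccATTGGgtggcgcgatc
B2m: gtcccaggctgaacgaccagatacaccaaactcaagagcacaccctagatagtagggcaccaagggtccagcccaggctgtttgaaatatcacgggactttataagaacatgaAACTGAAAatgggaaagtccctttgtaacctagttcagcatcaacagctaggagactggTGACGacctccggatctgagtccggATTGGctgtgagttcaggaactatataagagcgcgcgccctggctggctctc
Psmb10: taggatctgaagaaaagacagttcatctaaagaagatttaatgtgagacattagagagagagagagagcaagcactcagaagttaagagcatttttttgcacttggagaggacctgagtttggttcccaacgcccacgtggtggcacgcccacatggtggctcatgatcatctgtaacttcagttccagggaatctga
The H2-K1 stretch holds an IRF core, a CCAAT box, a CRE-type element and a kappaB match, the B2m stretch holds the first 3 of these, and the Psmb10 stretch holds none of the 5 motifs. Of the 10 members, 8 had a RefSeq promoter (Tap2 and Nlrc5 had none matched), and the 250 bases before the RefSeq start were searched. For Tapbp, Psmb9, Tap1, Psmb8 and H2-D1 these bases began inside an annotated GENCODE exon, so they are not purely upstream sequence. An IRF core was found in 3 of the 8 (H2-K1, H2-D1 and B2m) and in 21.3% of all 32851 promoters. A kappaB match was found in 2 (H2-K1 and H2-D1) and in 4.98%. A CCAAT box was found in 6 members and in 33.8% of all promoters, a CRE-type element in 5 and in 17.8%, and a GAS element in 1, Psmb8, and in 7.02%. By their RefSeq entries Tap1 and Psmb9 start back to back, with 225 bases between their starts (chr17:34187331-34187555). These 225 bases lie in the searched stretches of both genes, so a match within them counts for both members. In GENCODE the 2 genes overlap there instead, sharing the 212 exonic bases given above. These matches describe letters and not occupied sites.

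Gene-assigned counts were 10307281 to 11474107 in input, 13308021 to 16139531 in control pulldowns and 2220291 to 5826361 in DKO pulldowns, and the second DKO animal gave the shallowest J2 and K1 libraries. Replicates correlated at r = 0.991 or higher (log2 CPM over genes) except for DKO J2 (0.952) and DKO K1 (0.961), so DKO pulldown values carry the widest error. CPM below are counts scaled by depth and TMM over the 12 libraries. The TMM factors of the first and second DKO animal were 0.674 and 1.21 in J2 and 0.758 and 0.996 in K1. The gaps in pulldown CPM between these 2 animals therefore depend in part on this scaling. Kat2b had 359 and 343 input counts in control and 118 and 114 in DKO, a log2 fold change of -1.51 (SE 0.165, edgeR adjusted p 6.32e-04), and Kat2a had 222 and 228 against 84 and 148, a log2 fold change of -0.88 (SE 0.227, adjusted p 0.0205). The 8 epithelial markers summed to between 6298 and 7646 CPM in every input library, with none at 0. Singly their log2 fold changes in DKO input ran from -0.49 to 1.32, with 1 called higher and 0 lower. The 16 leukocyte markers summed to 145 and 139 CPM in control input and to 107 and 95.4 CPM in DKO input. Of the 12 leukocyte markers tested in input, 5 were called lower in DKO (Cd3e, Cd3g, Cd8a, Gzma and Itgax) and 1 was called higher (Cd68). Of all 15088 genes tested in input, 35.9% were called in either direction and 18.8% were called higher. The 6 endothelial markers summed to at most 14.9 CPM in input, and apart from Tie1, which had 0 and 0 counts in control and 152 and 97 in DKO, and Pecam1, none exceeded 1 input count. The 6 fibroblast markers summed to at most 4.91 CPM in input but to 172 and 205 CPM in the J2 and K1 libraries of the first DKO animal.

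Among the members, B2m was by far the most abundant per length in control input, at 2079 and 1751 CPM per kilobase of exon. H2-K1 followed at 304 and 280, and H2-D1 at 252 and 202. Tapbp (91.3 and 82.7) and Psmb10 (74.6 and 63.6) came next, and each of these 5 genes lay above the next with no overlap between the animals. Tap1, Tap2, Psmb9 and Psmb8 followed with mean levels from 23.2 down to 15.1 CPM per kilobase, and the neighbours in this order overlapped. Nlrc5 was lowest, at 3.25 and 1.20 CPM per kilobase. In DKO input Nlrc5 reached 17.3 and 9.09, overlapping Psmb8 (14.0 and 13.05), and H2-D1 (715 and 536) overlapped H2-K1 (614 and 471). Together the members took 0.468% ± 0.0590 of gene counts in control input and 0.738% ± 0.0617 in DKO input (SD, n = 2 animals each).

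**Figure D1:**
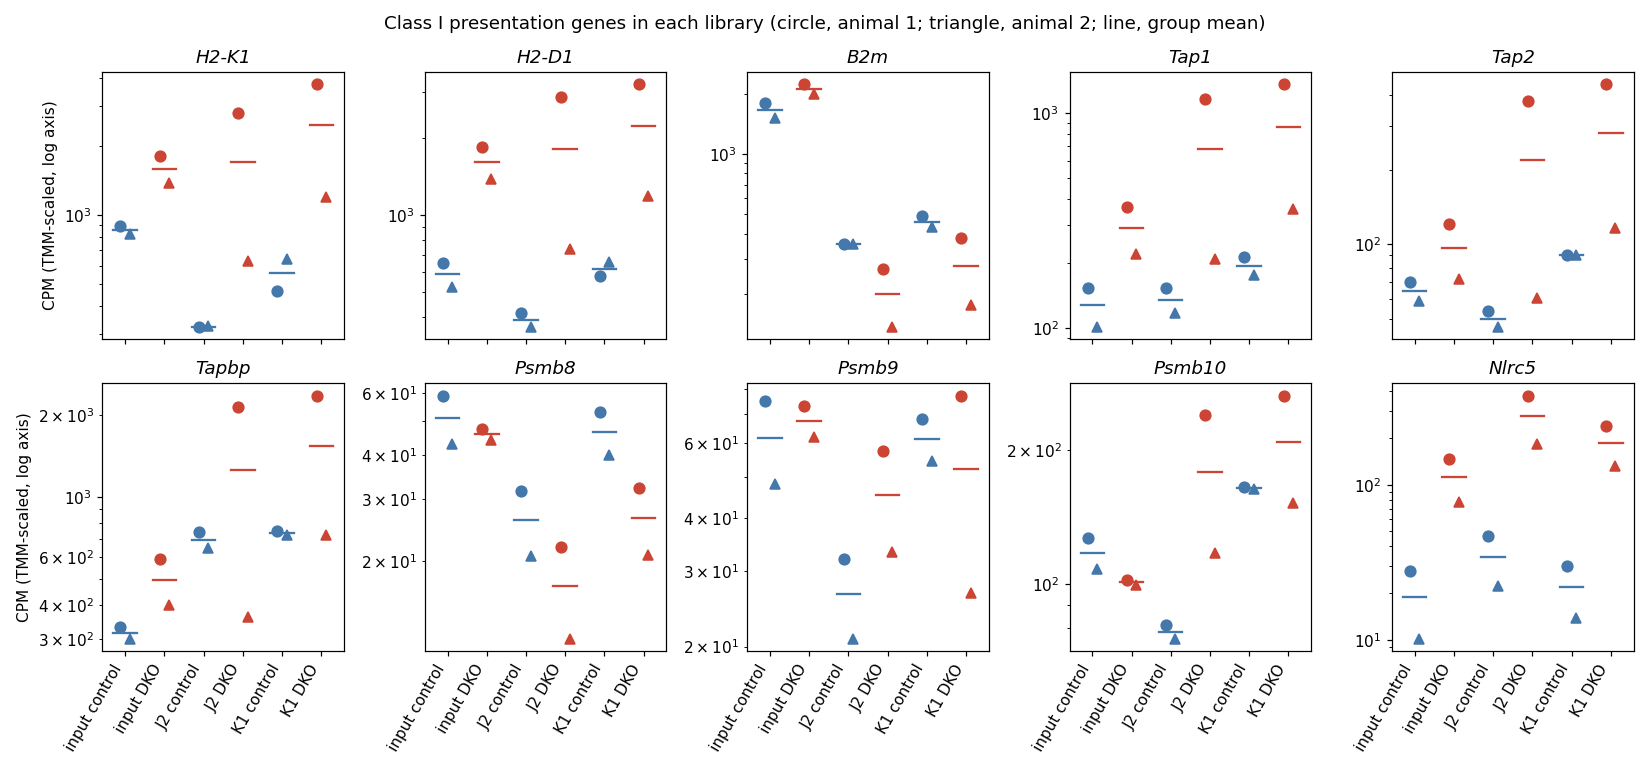
Level of each of the 10 genes (TMM-scaled CPM, log axis) in every library, by library kind and genotype, with control in blue and DKO in red; points are animals and lines are means of 2. In input the DKO animals lie above both controls for H2-K1, H2-D1, B2m, Tap1, Tap2, Tapbp and Nlrc5. At this scaling the first DKO animal lies above the second in both pulldowns for all 10 genes.

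The first comparison asked how the RNA of these genes differed between DKO and control epithelium before any pulldown. The heavy chains, the transporter subunit Tap1, Tapbp and Nlrc5 rose, while none of the 3 immunoproteasome subunits was called at an adjusted p under 0.05. In all, 5 of the 10 members were called higher and 0 lower, against 35.9% of 15088 genes called in either direction and 18.8% called higher. The median log2 fold change of the members was 0.65, against -0.00097 for all genes tested, and it was 0.35 without the first DKO animal and 0.93 without the second. In bulk RNA, fewer cells of a type and less RNA per cell cannot be told apart.

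Nlrc5, the transactivator of class I heavy chain genes, had 27.6 and 10.1 CPM in control input and 147 and 77.2 CPM in DKO. Both DKO animals lay above both controls, and the rise was 6.13-fold (log2 fold change 2.62, SE 0.461, edgeR adjusted p 0.00449), the largest among the members. Its log2 fold change was 3.49 without the first control animal, 2.05 without the second, 2.09 without the first DKO animal and 3.01 without the second, and it was called each time. H2-D1, one of the classical heavy chains, had 651 and 522 CPM in control and 1845 and 1383 in DKO. The groups were far apart, and the rise was 2.83-fold (SE 0.200 on the log2 scale, adjusted p 0.00141). H2-K1, the other heavy chain, had 893 and 824 CPM in control and 1804 and 1384 in DKO, a 1.91-fold rise without overlap (log2 0.93, SE 0.179, adjusted p 0.00633). The light chain B2m had 1788 and 1506 CPM in control and 2232 and 1984 in DKO. Its DKO values were also above both controls, but the log2 fold change of 0.40 (SE 0.174) did not pass (adjusted p 0.115).

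Among the loading genes, Tap1, which encodes a TAP subunit, had 154 and 101 CPM in control and 365 and 220 in DKO. It rose 2.36-fold (log2 1.24, SE 0.275, edgeR adjusted p 0.0115). Its partner Tap2 had 70.2 and 59.1 CPM in control and 120 and 72.0 in DKO, and its log2 fold change of 0.61 (SE 0.231) missed the threshold (adjusted p 0.0754). Tapbp, which encodes tapasin, had 331 and 300 CPM in control and 589 and 399 in DKO and rose 1.61-fold (log2 0.69, SE 0.195, adjusted p 0.0297). In all 3 genes both DKO animals were above both controls, with the second DKO animal nearer to them.

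None of the immunoproteasome subunits, which change the cuts that the proteasome makes, was called. Psmb8 had 59.0 and 43.0 CPM in control input and 47.5 and 44.1 in DKO, within the control range. Psmb9 had 75.3 and 47.9 CPM in control and 72.9 and 62.0 in DKO, also within it. Psmb10 had 127 and 108 CPM in control and 102 and 99.9 in DKO, below both controls. Their log2 fold changes were -0.12 (SE 0.165), 0.17 (SE 0.210) and -0.18 (SE 0.129), with edgeR adjusted p of 0.616, 0.560 and 0.304. Tap1 and Psmb9, which are read from opposite strands, had Tap1 to Psmb9 ratios per length of 1.36 and 1.41 in control input and 3.35 and 2.37 in DKO. The ratio was thus 2.06 times higher in DKO on average with no overlap, but with 2 animals a side an exact two-sided permutation test cannot go below p = 0.333.

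A single fit of all 12 libraries left Nlrc5 as the only member called in input (edgeR adjusted p 0.0258), with 1675 of 16582 genes called. Tapbp was not called without the second control animal, and its log2 fold change ran from 0.39 to 0.93 over the animals left out. Leukocytes carry class I genes at high levels, and the summed leukocyte markers were lower in DKO input while 5 members rose. The part of these markers in the result was not tested.

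Related genes were counted in the same input comparison. The constitutive catalytic subunits that the immunoproteasome replaces were not called: Psmb5 at a log2 fold change of -0.02, Psmb6 at 0.11 and Psmb7 at 0.35. Of the 11 remaining core subunits only Psmb4 was called, as higher (log2 0.44, SE 0.117, edgeR adjusted p 0.0244), and the list's median was 0.05. None of the 4 activator and assembly genes was called. Of 5 other loading genes none was called higher, and Erap1, the peptidase that trims peptides in the endoplasmic reticulum, fell by 0.72 on the log2 scale (SE 0.121, adjusted p 0.00386).

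The non-classical class I genes, relatives of the heavy chains with narrower or other ligands, had 15 of 17 genes tested in input. Of these, 8 were called higher and 1 lower, against 35.9% of all genes in either direction and 18.8% higher. The median log2 fold change of the 15 was 0.67. H2-Q6 had 16.8 and 7.99 CPM in control and 133 and 125 in DKO (log2 3.43, SE 0.298, edgeR adjusted p 2.87e-04). H2-Q7 had 20.1 and 9.65 CPM in control and 94.8 and 86.5 in DKO (log2 2.65). The control and DKO values of both genes were far apart. However, 23.6% of the longest H2-Q6 transcript and 12.9% of that of H2-Q7 are near-identical to other genes, each other included. Reads from such stretches may have been left out as multiply aligned, so both genes may be counted low. H2-T22 (log2 2.05) and H2-T10 (1.82) also rose and share 58.3% and 59.0% of their longest transcripts with near-identical sequence, each other included. H2-Q10 (1.98) and H2-Q4 (1.90) completed the 6 largest changes, and 27.0% of the longest H2-Q4 transcript is near-identical to other genes.

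The regulators described here did not move in one direction. Rfx5, the DNA-binding subunit of the RFX complex, rose from 8.03 and 8.35 CPM to 17.1 and 11.1 (log2 0.82, SE 0.236, edgeR adjusted p 0.0317). Irf1, an interferon-induced activator of class I genes, fell from 154 and 119 CPM to 80.2 and 75.2, by 0.78 on the log2 scale (SE 0.153, adjusted p 0.00710). Not called were 7 regulators: Irf2 (0.34), Nfya (0.36), Nfyb (-0.03), Nfyc (-0.22), Creb1 (-0.04), Rfxap (-0.14) and Rfxank (-0.37). The interferon genes Ifng, Ifnb1, Ifnl2 and Ifnl3 had 0 to 3 counts in each of the 12 libraries, too few to test.

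**Figure D2:**
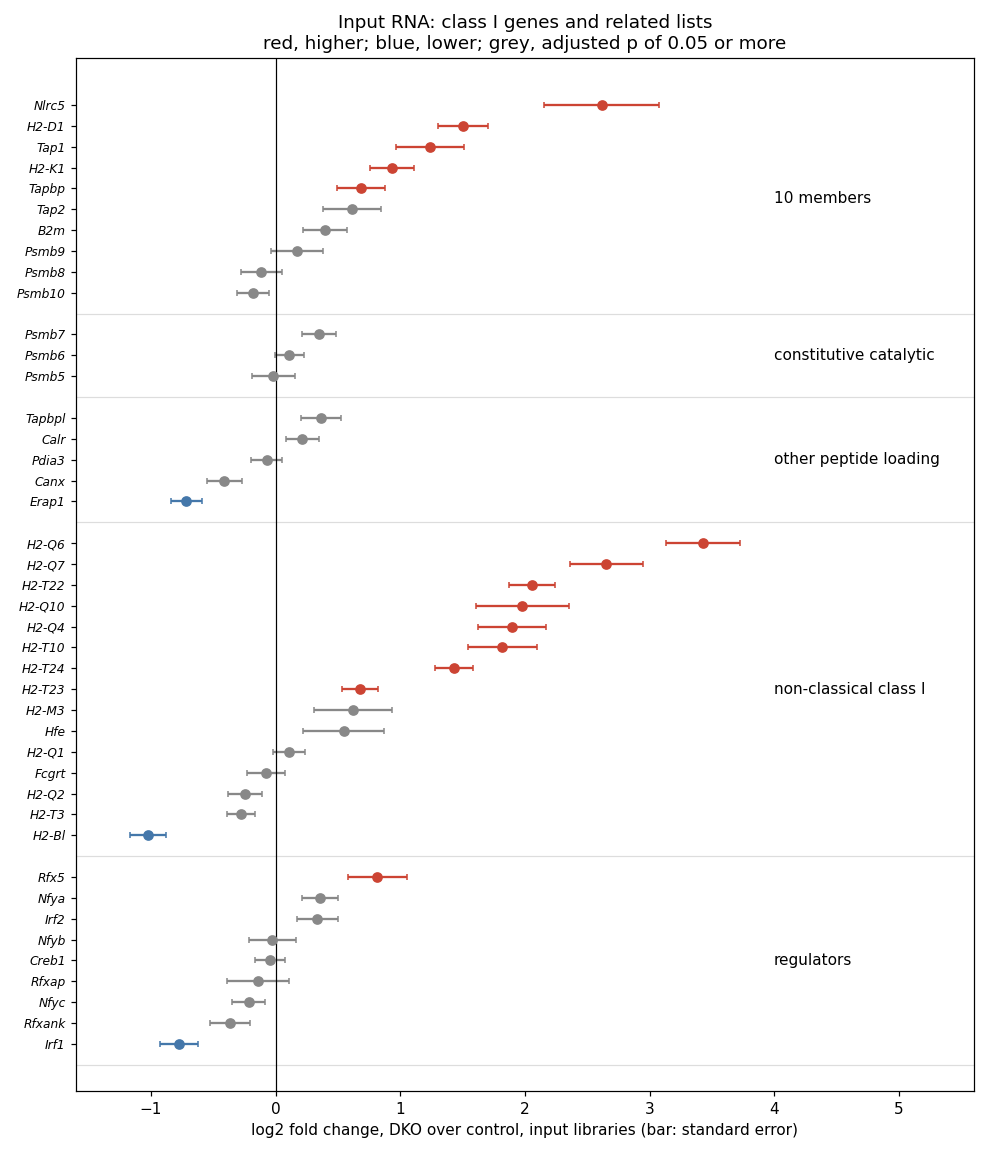
Log2 fold change of DKO over control in input for the 10 members and 4 related lists (1 listed gene is not shown), with the standard error as bar (2 animals a side); red genes are called higher, blue lower and grey not called at an adjusted p under 0.05. Nlrc5 (2.62) leads the members and H2-Q6 (3.43) the non-classical genes, while the constitutive and immunoproteasome catalytic subunits lie between -0.18 and 0.35.

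The second pair of comparisons set DKO against control within each pulldown. In J2, Nlrc5 alone was called, and 12.2% of 13181 genes were called in either direction and 6.02% higher. In K1, 5 members were called, the heavy chains H2-K1 and H2-D1, the transporter subunits Tap1 and Tap2, and Nlrc5, all higher, against 27.1% of 12888 genes in either direction and 13.2% higher. The members' median log2 fold change was 1.68 in J2 and 1.49 in K1, against 0.03 and -0.02 for all genes tested. Without the first DKO animal these medians were 0.53 in J2 and 0.41 in K1, and without the second they were 2.31 and 2.15. These changes include those of the RNA abundance itself.

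Nlrc5 had 46.5 and 22.2 CPM in control J2 with 376 and 182 in DKO J2, while in K1 control gave 30.1 and 13.9 and DKO 239 and 131. DKO was above control without overlap in both, by 8.28-fold in J2 (log2 3.05, SE 0.589, edgeR adjusted p 0.0388) and 9.40-fold in K1 (log2 3.23, SE 0.452, adjusted p 0.00450). H2-K1 had 322 and 325 CPM in control J2 with 2792 and 631 in DKO J2, while in K1 control gave 465 and 642 and DKO 3751 and 1202. The 2 DKO animals differed more from each other than the lower one differed from the controls in J2. Its log2 fold change was 2.41 in J2 (SE 0.859, adjusted p 0.114) and 2.31 in K1 (SE 0.567, adjusted p 0.0243).

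H2-D1 had 415 and 366 CPM in control J2 with 2871 and 739 in DKO J2, while in K1 control gave 576 and 654 and DKO 3234 and 1189, a K1 log2 fold change of 2.00 (SE 0.512, edgeR adjusted p 0.0279). Tap1 had 153 and 117 CPM in control J2 with 1157 and 209 in DKO J2, while in K1 control gave 213 and 176 and DKO 1363 and 359, a log2 change of 2.28 (SE 0.569, adjusted p 0.0256). Tap2 had 53.7 and 46.2 CPM in control J2 with 378 and 60.7 in DKO J2, while in K1 control gave 90.5 and 90.7 and DKO 444 and 116, a log2 change of 1.77 (SE 0.525, adjusted p 0.0432). For these 3 genes the DKO values were above the controls in both pulldowns. Their J2 log2 fold changes of 2.22, 2.34 and 2.13 did not pass (adjusted p 0.124, 0.118 and 0.130).

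B2m went the other way in both pulldowns. It had 357 and 356 CPM in control J2 with 266 and 137 in DKO J2, while in K1 control gave 488 and 431 and DKO 379 and 176. Both DKO animals were below both controls, although the log2 fold changes of -0.79 in J2 and -0.56 in K1 were not called (edgeR adjusted p 0.281 and 0.304). Tapbp overlapped between genotypes in both, at 743 and 651 CPM in control J2 with 2155 and 361 in DKO J2, and at 751 and 722 CPM in control K1 with 2367 and 722 in DKO K1.

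Among the immunoproteasome subunits, Psmb8 had 31.6 and 20.7 CPM in control J2 with 21.9 and 12.02 in DKO J2, while in K1 control gave 53.0 and 40.1 and DKO 32.3 and 20.8. Psmb9 had 32.1 and 20.9 CPM in control J2 with 57.3 and 33.3 in DKO J2, while in K1 control gave 68.3 and 54.4 and DKO 77.3 and 26.7. Psmb10 had 81.2 and 75.5 CPM in control J2 with 240 and 117 in DKO J2, while in K1 control gave 165 and 164 and DKO 265 and 152. None of the 3 was called in either pulldown, with log2 fold changes from -0.62 to 1.22. Of the 15 non-classical genes tested in the pulldowns, 4 were called higher in J2 and 8 in K1, and none was called lower. Among all genes tested, 6.02% were called higher in J2 and 13.2% in K1.

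Single animals weighed on these pulldown results. The log2 fold change of H2-K1 in J2 ran from 1.04 without the first DKO animal to 3.17 without the second. Without either control animal Nlrc5 was no longer called in J2, and no other member was called in K1. These fits, with 1 control library, called far fewer genes of any kind, so the lost calls are not particular to the members. Over the animals left out the log2 fold change of Nlrc5 ran from 2.48 to 3.64 in J2 and from 2.74 to 3.90 in K1. In J2, DESeq2 called 5 members, with 2884 of 13181 genes called, and a fit of all 12 libraries 6, with 5984 of 16582. In K1 that fit called 2, H2-K1 and Nlrc5, with 4439 of 16582 genes called. Without the first DKO animal the K1 log2 fold changes were 1.37 for H2-K1, 1.20 for H2-D1, 1.13 for Tap1 and 0.61 for Tap2. The pulldowns of the first DKO animal also held the highest sums of the epithelial markers (12917 CPM in J2 and 14801 CPM in K1) and of the fibroblast markers, and the part of these in the result was not tested.

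The third set of comparisons related each pulldown to input, which gives the share of a gene's RNA recovered by the antibody relative to all genes. B2m stood lowest among the members: it was depleted from both pulldowns in both genotypes. In control animals its log2 CPM, pulldown minus own input, was -2.32 and -2.08 with J2, and -1.87 and -1.80 with K1. In DKO animals it was -3.07 and -3.86 with J2, and -2.56 and -3.49 with K1. All 8 values were below 0 and those of DKO lay below those of control. B2m was 4.60-fold lower in J2 than input in control (log2 -2.20, SE 0.486, edgeR adjusted p 0.0131) and 10.3-fold lower in DKO (log2 -3.36, SE 0.511, adjusted p 0.00530). In K1 it was 3.78-fold lower in control (log2 -1.92, SE 0.378, adjusted p 0.00313) and 8.04-fold lower in DKO (log2 -3.01, SE 0.395, adjusted p 6.14e-04).

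In control J2, 2 of the 10 members were lower than input, B2m and Psmb9 (log2 -1.21, SE 0.361, edgeR adjusted p 0.0364), and none was higher, against 29.8% of 15923 genes called, with 14.6% lower. In DKO J2, B2m and Psmb8 (log2 -1.40, SE 0.349, adjusted p 0.0237) were lower and none was higher without the animal as a block, against 25.7%, with 13.4% lower. In control K1 only B2m was called, and it was lower, against 39.8% of 15908 genes, with 20.1% lower. The constitutive subunits Psmb5, Psmb6 and Psmb7 were each lower than input in J2, in control and in DKO.

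In DKO K1, 6 members were called, 4 higher and 2 lower, against 35.6% of genes, 14.6% higher and 21.0% lower. B2m and Psmb8 (log2 -0.84, SE 0.266, edgeR adjusted p 0.0318) were lower than input. Tapbp (log2 1.56, SE 0.467, adjusted p 0.0264), Psmb10 (0.96, SE 0.271, adjusted p 0.0204), Tap2 (1.46, SE 0.484, adjusted p 0.0385) and Tap1 (1.47, SE 0.519, adjusted p 0.0483) were higher, although the Tap1 and Tap2 levels of input and pulldown overlapped between animals. Pulldown minus input for Tap1 stood at 1.90 and 0.70 in DKO animals and 0.47 and 0.80 in controls, and for Tapbp at 2.01 and 0.85 in DKO animals and 1.18 and 1.27 in controls. With TMM scaling the first DKO animal had the higher value of the 2 for all members but Nlrc5 in K1. Without it the log2 values were 0.55 for Tap1, 0.54 for Tap2, 0.70 for Tapbp and 0.45 for Psmb10, and Tapbp alone of these 4 was called.

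Leaving out either control animal ended the B2m calls in control J2, control K1 and DKO J2. Of these 4 B2m results only DKO K1 stayed called whichever animal was left out. The fits with 1 control library called far fewer genes of any kind, so the lost calls are not particular to B2m. Over the animals left out its log2 values ran from -2.33 to -2.06 in control J2 and from -1.93 to -1.89 in control K1. In DKO they ran from -3.97 to -3.04 with J2 and from -3.65 to -2.64 with K1. In a single fit of all 12 libraries B2m was called in all 4, and it was then the only member called in DKO K1, where 3864 of 16582 genes were called. With the animal as a block, which pairs each pulldown with its own input, Psmb8 (log2 -0.97, adjusted p 0.0343) and Nlrc5 (0.94, adjusted p 0.0456) joined the calls in control J2, and Tapbp (1.14, adjusted p 0.00826) joined in control K1. Nlrc5 was then also called higher in DKO J2 (1.32, adjusted p 0.0228) and in DKO K1 (0.65, adjusted p 0.0187).

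**Figure D3:**
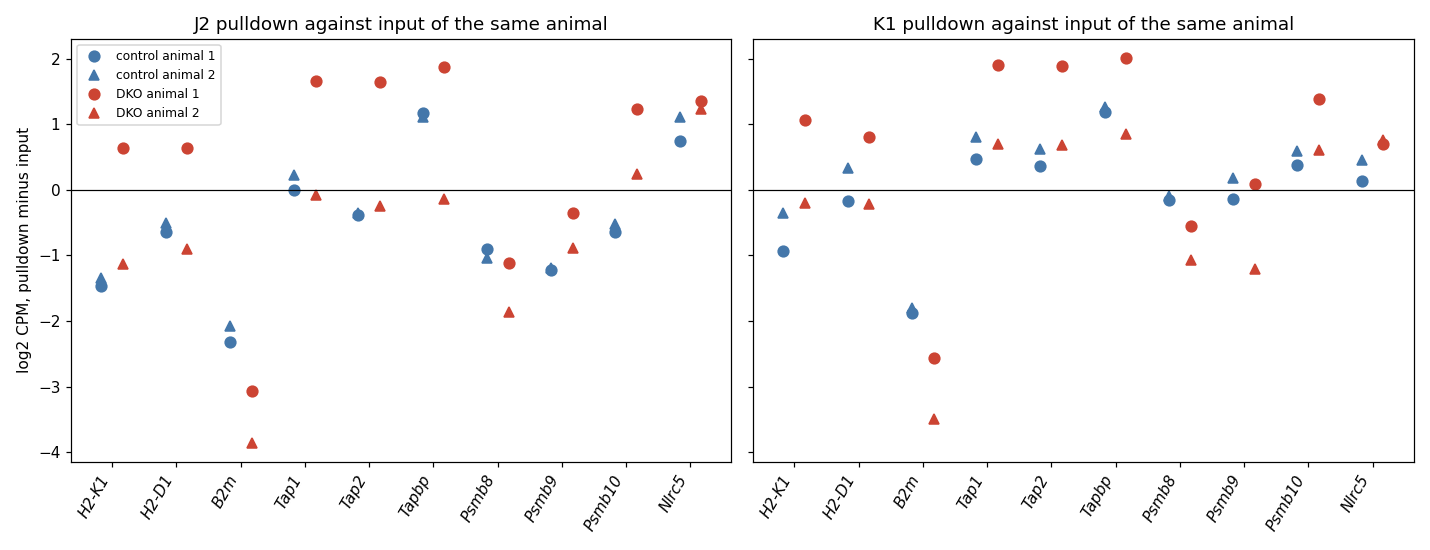
Log2 CPM of the J2 (left) and K1 (right) pulldown minus the input of the same animal for each member, control in blue and DKO in red, 2 animals each. All B2m points lie at -1.80 or below. With TMM scaling the first DKO animal lies above the second for every gene except Nlrc5 in K1.

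The difference of these enrichments between DKO and control was tested as its own contrast. With edgeR, 0 of the 10 members were called for J2, against 2.71% of genes, and 0 for K1, against 5.47%. At an unadjusted p under 0.05 there was 1 member for J2 and 0 for K1, against 4120 of 15923 and 3736 of 15908 genes. DESeq2 called 0 members in both, against 1980 genes for J2 and 1257 for K1. Psmb10 had the smallest adjusted p in J2, with a difference of 1.43 (SE 0.499, adjusted p 0.128), and its pulldown minus input ran at -0.65 and -0.52 for control animals and 1.23 and 0.23 for DKO animals. The difference for B2m was -1.16 in J2 (SE 0.661, adjusted p 0.300) and -1.09 in K1 (SE 0.520, adjusted p 0.239), with no overlap between the genotypes in either. H2-K1 differed by 1.53 in J2 (SE 0.928) and by 1.26 in K1 (SE 0.654), also without overlap and not called. The members' median difference was 0.72 in J2 and 0.45 in K1, against 0.0019 and -0.20 for all genes tested. Without the first DKO animal it was -0.0082 in J2 and -0.16 in K1, against -0.14 and -0.42 for all genes. Without the second it was 1.06 and 0.75, against -0.11 and -0.22.

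The balance between light and heavy chain RNA was examined within libraries, since a ratio of genes in 1 library does not depend on scaling between libraries. B2m over the sum of H2-K1 and H2-D1, per length, was 3.74 and 3.63 in control input and 1.95 and 2.29 in DKO input. For J2, control gave 1.53 and 1.64 with 0.150 and 0.317 in DKO; for K1, control gave 1.49 and 1.06 with 0.174 and 0.236 in DKO. The DKO ratio was therefore lower in each kind of library without overlap, by 1.74-fold in input, 6.79-fold in J2 and 6.22-fold in K1 on means. H2-K1 over H2-D1 moved from 1.20 and 1.39 in control input to 0.859 and 0.878 in DKO. In K1 this ratio went the other way, from 0.709 and 0.862 in control to 1.02 and 0.887 in DKO, and in J2 the genotypes overlapped. Tap1 over Tap2 moved from 1.51 and 1.18 in control input to 2.09 and 2.11 in DKO input, and DKO was also above control without overlap in both pulldowns. Psmb8 over Psmb5 and Psmb9 over Psmb6, the immunoproteasome subunits over those they replace, overlapped between genotypes in input. Psmb10 over Psmb7 was 12.1 and 9.81 in control input and 8.17 and 7.002 in DKO input, but in J2 control gave 16.5 and 18.0 and DKO 30.5 and 40.2. Of the longest Psmb5 transcript, 88.4% is near-identical to other genes, which limits its ratio. For each of the 21 ratios compared by an exact two-sided permutation test, the smallest p that 2 against 2 can give is 0.333, and 0.412 was the smallest value after Benjamini-Hochberg adjustment.

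**Figure D4:**
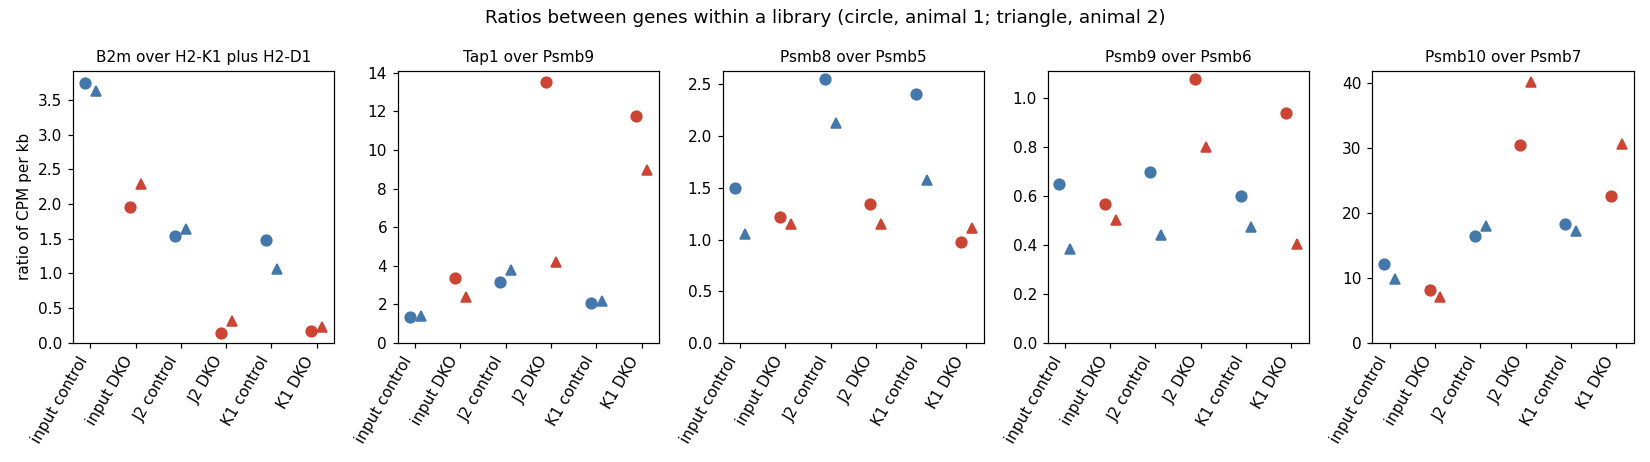
Ratios between pairs of genes within each library (CPM per kilobase of exon over the same), control in blue and DKO in red, with a point per animal. B2m over heavy chains is lower in DKO than in control in all 3 kinds of library, with no DKO pulldown above 0.317, while Tap1 over Psmb9 is higher in DKO.

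The members did not follow a common pattern over the 12 libraries. The correlation of log2 CPM of a member with the mean of the other 9 was 0.904 for H2-D1 and for Tap2, 0.894 for H2-K1 and 0.858 for Tap1. It was 0.717 for Psmb10, 0.654 for Psmb9, 0.583 for Tapbp and 0.529 for Nlrc5, and close to 0 for Psmb8 (0.0910) and B2m (0.00339). These values describe 12 libraries that share 4 animals, and differences in depth and library kind enter them. The order of the groups showed the same split. For H2-K1, H2-D1, Tap1 and Tap2 the order of the mean levels began with DKO K1, DKO J2 and DKO input, with the neighbours among these 3 overlapping, whereas for B2m both inputs lay above all pulldowns and DKO J2 was lowest.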

How the data were processed

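RNA of 12 libraries from 4 mice was analysed as deposited, in 1 file of read counts per gene for each library. Per the labels, the deposited counts are whole numbers made without strand from rRNA-depleted libraries with molecular identifiers. The submitters' processing notes name STAR 2.7.10b, UMI-tools 1.1.4, HTSeq 2.0.2 and the build mm10 (GRCm38.p4), without their roles. Rows for reads outside genes, ambiguous reads (3.65 to 6.11% of listed reads) and multiply aligned reads (5.54 to 46.7%, highest in DKO pulldowns) were left out. Reads of overlapping genes fall among the ambiguous ones, and any reads that come from near-identical genes among the multiply aligned, so those genes are counted low.

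The test was the quasi-likelihood one of edgeR 4.0.16 (R 4.3.3), with TMM scaling, genes kept by filterByExpr at its minimum of 10 counts, and p adjusted by Benjamini-Hochberg over all genes tested, called under 0.05. DKO was set against control in fits of 4 libraries, and pulldown against input and its difference between genotypes in fits of 8. All single-gene adjusted p-values are from this test unless another is named, and for log2 CPM the prior count was 2. The edgeR fits were tested on simulated data. Exons came from GENCODE (GRCm38) and promoters from RefSeq (GRCm38), and near-identity was searched with blastn 2.17.0+ (at least 97% over at least 100 bases). Levels per length divide CPM by the union of annotated exons.

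Samples were grouped by the labels. Replicates were different libraries, with a chi-square per degree of freedom of 11.0 or more between them. Labels tie the input, J2 and K1 libraries of an animal together, so replicate numbers pair pulldown with input. They do not pair DKO with control animals.

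The alternatives were DESeq2 1.42.0, other scalings, no filter, a block, a fit of all 12 libraries, thinning to equal depth and leaving out each animal. Named genes were all 10 members, Kat2a and Kat2b in input, all constitutive catalytic subunits, the regulators, at most the 6 largest called changes in input of each other list, and the 5 genes outside the members most alike in pattern. Members and lists were chosen with earlier results of these data known, and the ratios after their values were seen. Results for some listed genes are not reported here.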

Additional observations from a re-analysis of the deposited data

How the results depend on the processing

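Of 990 recomputed member values, 40 changed sign, 2 of them in input. Members called moved past 1.5 times as follows, with the cause not tested. DKO against control in J2 (1 called) gave 5 by DESeq2, 3 without a filter and 6 in a fit of all 12 libraries. Those settings called 2884 of 13181, 4273 of 25232 and 5984 of 16582 genes. The 12-library fit gave 1 in input (5 called), with 1675 of 16582 genes, and 2 in K1 (5 called), with 4439. J2 against input in control (2 called) gave 5 without TMM, 4 without a filter and 1 in the 12-library fit. Genes called there were 4292 of 15923, 5823 of 29004 and 4919 of 16582. K1 against input gave 2 without a filter in control (1 called), with 7450 of 28702 genes. It gave 1 in the 12-library fit in DKO (6 called), with 3864 of 16582. The J2 difference of enrichment (0 called) gave 1 without TMM, with 669 of 15923 genes. The K1 difference (0 called) gave 1 without a filter, with 1763 of 28702 genes. Without TMM the median of all genes shifted by more than 0.1, to -0.13 in input, -0.39 in K1, -0.44 and -0.26 in J2 against input in control and DKO, -0.23 and -0.48 in K1 against input in control and DKO, and -0.30 in the K1 difference. DESeq2 size factors in edgeR moved none of these counts and shifted that median to -0.12 in K1 against input in control and -0.04 in the K1 difference.

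With the replicate block, which pairs a pulldown with its input, J2 against input in control gave 4 members, with 4483 of 15923 genes called. K1 against input in control gave 2, with 7288 of 15908. With this block H2-K1 (-0.22) and H2-D1 (-0.10) in J2 against input in DKO and Tapbp (-0.25) in the J2 difference changed sign. The block on the number shared by DKO and control animals, which pairs nothing, gave 6 members in input, 1 in J2 and 5 in K1. Genes called were 5732 of 15088, 2262 of 13181 and 3377 of 12888. In DKO, pulldown against input gave 3 members in J2 and 7 in K1 with the block, where 3398 of 15923 and 6337 of 15908 genes were called.

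Leaving out each animal in turn, where a lone library is assumed to vary like the other group, gave 4 to 7 members in input, 0 to 8 in J2, 1 to 8 in K1, 0 to 8 for J2 against input in control and in DKO, 0 to 5 and 1 to 7 for K1 against input in control and DKO, and 0 to 7 and 0 to 3 for the J2 and K1 differences. The number of genes of any kind called also varied widely between these fits, and in each comparison it was lower without a control animal than without a DKO animal. The spread in members called therefore cannot be told apart from that of all genes. Signs changed within the log2 ranges that follow. In input they were -0.34 to 0.12 for Psmb8 and -0.13 to 0.52 for Psmb9. In DKO against control they were -0.87 to 1.69 for Tapbp in J2 and -0.95 to 0.49 for Psmb9 in K1. In J2 against input they were -0.0334 to 0.23 for Tap1 in control and, in DKO, -1.24 to 0.66 for H2-K1, -1.02 to 0.67 for H2-D1, -0.18 to 1.69 for Tap1, -0.36 to 1.68 for Tap2 and -0.26 to 1.90 for Tapbp. In K1 against input they were -0.23 to 0.24 for H2-D1 and -0.19 to 0.0925 for Psmb9 in control, and -0.36 to 0.97 for H2-K1 and -0.37 to 0.72 for H2-D1 in DKO. For the J2 difference they were -0.31 to 1.24 for H2-D1, -0.15 to 1.59 for Tap1 and -1.28 to 0.74 for Tapbp, and for the K1 difference -0.35 to 0.73 for H2-D1, -0.43 to 0.77 for Tapbp and -1.27 to 0.0712 for Psmb9.

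Other sign changes were of values not called. DESeq2 size factors gave Psmb9 0.00374 in K1. Without TMM, J2 against input was -0.28 for Tap1 in control and -0.45 for H2-K1 and -0.37 for H2-D1 in DKO, K1 against input was -0.0692 for Nlrc5 in control and -0.00444 for H2-D1 in DKO, and the J2 difference was -0.00739 for Tapbp. Without a filter, J2 against input in DKO was -0.11 for H2-K1 and -0.0522 for H2-D1, K1 against input in control was 0.00989 for H2-D1, and the J2 difference was -0.0754 for Tapbp. The 12-library fit gave H2-D1 0.0699 in K1 against input in control. Thinning gave -0.23 for Tap1 and -0.10 for Nlrc5 in control (J2 and K1 against input) and -0.0172 for H2-K1 in DKO J2 against input. DKO pulldowns, with 2220291 counts in the shallowest, limit all pulldown results.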

Other observations

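The genes outside the list whose pattern was most like that of the 10 members, measured as the correlation of log2 CPM with the members' mean standardised profile over the 12 libraries, were Car9 (r = 0.973), which encodes a carbonic anhydrase, Aplp2 (0.968), a relative of the amyloid precursor protein, Sec23b (0.967), a coat protein of vesicles leaving the endoplasmic reticulum, Eipr1 (0.957) and Cry1 (0.957), a component of the circadian clock. They were taken from 9368 genes with a mean of at least 50 counts. The 12 libraries share 4 animals and differ in depth and kind, so these values only describe a likeness of pattern.

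H2-Bl, a non-classical class I gene, was the only gene of its list called lower in DKO input. It went from 34.0 and 31.5 CPM in control to 14.3 and 17.03 CPM in DKO (log2 fold change -1.02, SE 0.145, edgeR adjusted p 0.00186). It was singled out after its values were seen. In DKO J2 it had 14.0 and 34.5 CPM against 8.43 and 6.87 CPM in control J2, so it lay above control there and below control in input. In K1 the genotypes overlapped, at 4.98 and 16.3 CPM in DKO and 6.22 and 7.81 CPM in control.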
